A study of Rattus norvegicus with 42 samples.

Results

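10 genes of the follistatin, activin and bone morphogenetic protein (BMP) system were followed in explanted rat kidney mesenchyme: Fst, Inhba, Inhbb, Bmp2, Bmp4, Bmp7, Id1, Id2, Id3 and Smad6. They were taken by gene symbol, 10 of the 14218 genes that the platform's table names, and each gene was read from its probe set with the highest mean over all arrays. The mesenchyme was dissected from rat embryos at embryonic day 13.5 and freed of the ureteric bud with enzymes, and 42 Affymetrix arrays were made from 21 groups of 2 biological replicates. Explants were cultured with the ANX fraction, with LIF (leukemia inhibitory factor) or with NGAL (neutrophil gelatinase-associated lipocalin) and taken on days 1, 2, 3, 4, 5 and 7. Uninduced explants were cultured without these and taken on days 1 and 2, and fresh tissue was not cultured. All cultures, uninduced ones included, stood on collagen-coated filters in medium with insulin, transferrin, selenium, dexamethasone (5 µg/ml), prostaglandin, T3, an FGF (50 ng/ml) and a TGF (20 ng/ml). No strain or genotype and no content of the ANX fraction is given in the sources used here, and no uninduced culture was followed past day 2.

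Activins are dimers of inhibin beta chains, and BMPs are their relatives in the transforming growth factor beta family. Both bind pairs of serine/threonine kinase receptors, which phosphorylate SMAD proteins: activins act mainly through SMAD2 and SMAD3, BMPs through SMAD1, SMAD5 and SMAD9. Secreted binding proteins such as follistatin and noggin hold the ligands away from their receptors, and target genes such as Id1 and Smad6 respond to BMP signals. In the mouse kidney, BMP7 is needed for survival of the nephron progenitors and BMP4 is made around the ureteric duct.

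Bmp4 and Id1 had the highest correlation over the 21 groups of any pair of the genes, and Inhba had the largest differences between inducers, so the promoters of these 3 genes are shown. RefSeq promoter sequences on build GRCr8 were matched for 6 of the 10 genes. Each run below is the 250 bases before the start that the RefSeq table uses, 5′ to 3′, and capitals mark GTCT or its other strand AGAC, the short SMAD-binding motif. Id1 is on the plus strand at chr3:161671314-161671563, Bmp4 on the minus strand at chr15:22101934-22102183 and Inhba on the minus strand at chr17:53804509-53804758.
Id1: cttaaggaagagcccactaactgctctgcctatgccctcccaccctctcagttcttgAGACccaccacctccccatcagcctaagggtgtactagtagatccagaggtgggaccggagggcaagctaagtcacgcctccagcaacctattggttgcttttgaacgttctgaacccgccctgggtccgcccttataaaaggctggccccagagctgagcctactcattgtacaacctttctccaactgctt
Bmp4: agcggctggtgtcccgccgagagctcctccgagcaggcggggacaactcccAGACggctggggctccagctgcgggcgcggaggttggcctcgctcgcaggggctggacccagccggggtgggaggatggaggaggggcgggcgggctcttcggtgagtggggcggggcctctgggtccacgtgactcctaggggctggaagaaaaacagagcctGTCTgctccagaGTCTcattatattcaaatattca
Inhba: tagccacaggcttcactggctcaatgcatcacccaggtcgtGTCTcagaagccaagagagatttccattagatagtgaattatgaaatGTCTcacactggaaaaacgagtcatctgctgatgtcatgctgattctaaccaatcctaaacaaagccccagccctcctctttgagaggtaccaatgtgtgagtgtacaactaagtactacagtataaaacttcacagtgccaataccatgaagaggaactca
GTCT or AGAC was found 1 time in the Id1 window, 3 times in the Bmp4 window and 2 times in the Inhba window, and on either strand it occurs in 84.05% of 33469 RefSeq promoters of the same length. GGCGCC, a motif of BMP-responsive elements that reads the same on both strands, was found in none of these 3 windows and occurs in 8.695% of promoters. The start used lies 11212 bases inside the outermost annotated Bmp4 start, 6434 bases inside that of Inhba and 39 bases inside that of Id1.

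Values are given as log2 of the deposited intensity, and the test covered the 11388 genes with at least 1 group mean over log2 5.79. Inhbb, the beta B chain of activin B, stayed below that threshold on every array (log2 4.23 to 4.89) and was not tested. The other 9 genes were. Differences are on the log2 scale with the SE of a limma fit over all 42 arrays, p-values were adjusted over the 11388 genes by the Benjamini-Hochberg method, and an adjusted p under 0.05 was called. Of 10 listed mesenchyme markers 8 had a probe set, and all 8 exceeded the threshold in fresh tissue, where their summed intensity was 8085 to 8981. So did all 9 stromal, all 9 endothelial and all 7 erythroid markers with a probe set. The threshold therefore does not set the mesenchyme apart from these cell types. Of 9 of 10 ureteric bud markers with a probe set, 5 lay below the threshold in fresh tissue (Cdh1, Calb1, Emx2, Krt8 and Krt18) and the other 4 above it. In whole explants, fewer cells of a type and less RNA per cell cannot be told apart.

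Uninduced culture was accompanied by lower signals of follistatin, Bmp4, Id1 and Smad6. On day 1, 4 of the 9 tested genes were lower than in fresh tissue and 0 higher, where 6.06% of all genes tested were called (2.26% lower, 3.8% higher). On day 2, 6 of 9 were called, 5 lower and 1 higher, where 22.2% of all genes were (12.7% lower, 9.47% higher). The median difference of the 9 genes from fresh tissue was -0.57 on day 1 and -0.76 on day 2, beside 0.00072 and -0.05 over all genes tested. Several marker lists moved with culture: the summed intensity of 7 of 9 erythroid markers was 3063 to 5769 in uninduced explants and 16204 to 17878 in fresh tissue, and that of 9 of 10 endothelial markers 1840 to 3478 and 3604 to 3821 in the same groups. Skeletal muscle markers, 6 of 9 with a probe set, summed to 2087 to 4056 in uninduced explants and 1139 to 1199.8 in fresh tissue, and stromal markers, 9 of 10, to 18024 to 20656 and 14493 to 14617. The part of these markers in the differences was not tested. The dap control transcript, added to gauge labelling, had a log2 ratio of its 3′ to its 5′ probe set of 1.97, 0.77, 1.97 and 2.04 on the uninduced arrays, against 1.06 and 1.08 on the fresh ones; with that ratio as a covariate 4 of 9 genes were called on day 1 and 5 on day 2.

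With ANX or LIF, Fst, Bmp4 and Id1 were higher than in uninduced culture, and with NGAL no gene of the 9 was called. ANX gave 6 of 9 genes higher over days 1 and 2 and none lower (Fst, Bmp2, Bmp4, Id1, Id3 and Smad6), where 20.3% of all genes tested were called (11.2% higher, 9.12% lower). LIF gave 3 of 9 higher (Fst, Bmp4 and Id1) and none lower, where 24% of all genes were called (11.4% higher, 12.6% lower). NGAL gave 0 of 9, where 0% of all genes were called by limma; 799 genes, Fst among them, had an unadjusted p under 0.05. Other settings called 0 of the 9 genes and up to 23 of all genes with NGAL. The median difference of the 9 genes was 0.68 with ANX, 0.37 with LIF and 0.28 with NGAL, beside 0.03, 0.03 and 0.01 over all genes. The 3 comparisons share the same 4 uninduced arrays. On day 1 alone ANX had 3 of 9 called, LIF 3 and NGAL 0, where 6.5%, 8.33% and 0.0176% of all genes were. On day 2 alone they had 2, 2 and 0, where 5.26%, 8.14% and 0% were. Summed intensities of the stromal markers were 10030.3 to 12150 with ANX, 8588 to 10800.4 with LIF and 12595 to 18425 with NGAL on these days, against 18024 to 20656 in uninduced explants. Those of the 8 mesenchyme markers were 6632 to 7942 with ANX, 7618 to 8855 with LIF, 5989 to 8929 with NGAL and 5032 to 8688 in uninduced explants. The dap ratio was 0.84 to 2.35 on ANX arrays and 0.88 to 2.16 on LIF arrays of days 1 and 2, against 0.77 to 2.04 on uninduced arrays. The part of the markers in these differences was not tested; with the dap ratio as a covariate the 6 calls of ANX and the 3 of LIF were kept.

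**Figure D1:**
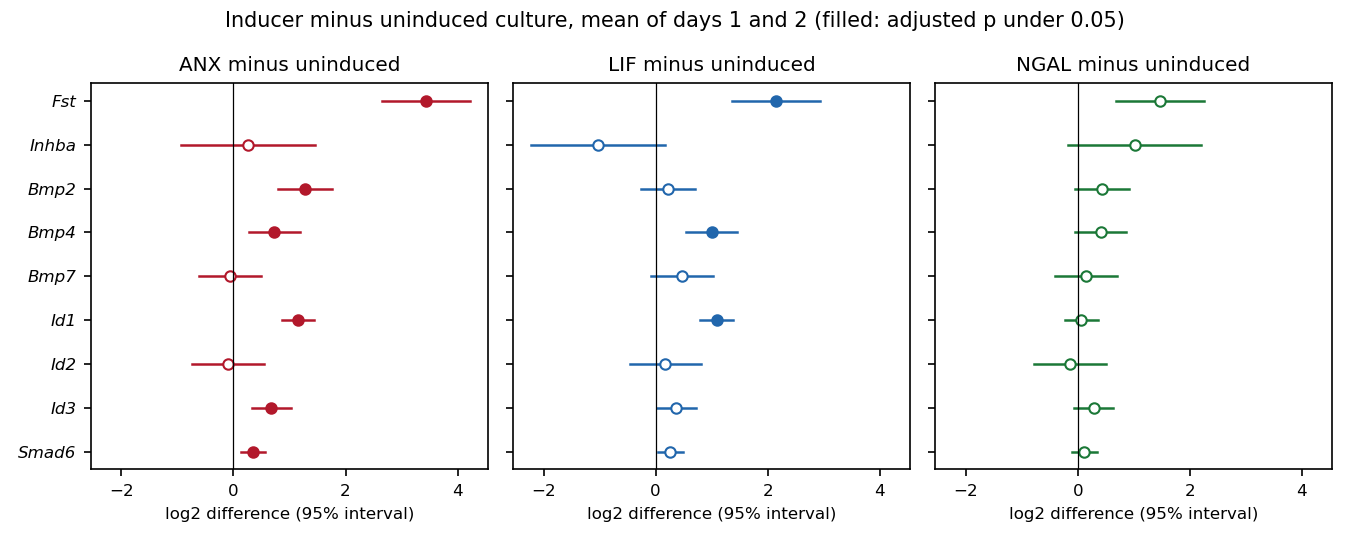
Each panel plots, for the 9 tested genes, the log2 difference of ANX, LIF or NGAL explants from uninduced explants as the mean of days 1 and 2 (x axis; 4 arrays a group), with its 95% interval as a bar; filled points have an adjusted p under 0.05. Fst lies furthest to the right in every panel (3.43, 2.15 and 1.47), and no point is filled for NGAL.

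Follistatin, encoded by Fst, binds activins almost irreversibly and some BMPs more weakly. Its log2 intensity was 5.29 and 6.74 on uninduced day 1 and 6.39 and 5.59 on uninduced day 2, against 9.27 and 9.32 in fresh tissue. All 4 uninduced arrays lay well below both fresh ones. Fst was 9.70-fold lower on day 1 (-3.28 ± 0.54, SE; adjusted p = 0.000521) and 9.89-fold lower on day 2 (-3.31 ± 0.54; adjusted p = 0.000164), and both calls were kept without any single array. The gene's other probe set gave -2.37 and -1.89, both called.

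ANX explants had the highest Fst of the series at the start of culture. Their 2 arrays read 10.07 and 10.12 on day 1, 9.19 and 8.37 on day 2, 7.50 and 8.76 on day 3, 8.04 and 7.00 on day 4, 7.19 and 8.22 on day 5, and 6.08 and 6.28 on day 7. The day 1 arrays were the only 2 of 36 induced arrays above both fresh arrays, and the day 7 arrays lay within the range of uninduced culture. Over days 1 and 2 Fst was 10.8-fold higher with ANX than in uninduced explants (3.43 ± 0.38; adjusted p = 2.75e-06). Day 7 averaged 6.18 and day 1 10.09 with ANX, and Fst fell 15.0-fold between them (-3.91 ± 0.54; adjusted p = 4.97e-05). Neither call was lost when any array was left out.

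LIF explants showed a lower start and a similar end. Their Fst values were 9.26 and 8.20 on day 1, 7.95 and 7.22 on day 2, 6.44 and 6.84 on day 3, 6.95 and 7.11 on day 4, 6.35 and 6.37 on day 5, and 5.58 and 6.85 on day 7. Both replicates of days 1 and 2 exceeded all 4 uninduced arrays, and the difference was 2.15 ± 0.38 (4.44-fold; adjusted p = 0.00033). Fst was 5.71-fold lower on day 7 than on day 1 (-2.51 ± 0.54; adjusted p = 0.00477). This last call was lost without LIF day 1 replicate 1 (-1.99; adjusted p = 0.0758) or without LIF day 7 replicate 1 (-1.88; adjusted p = 0.0755).

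NGAL explants had Fst between the uninduced and the fresh signal on 11 of 12 arrays. The arrays read 7.61 and 8.48 on day 1, 6.48 and 7.31 on day 2, 7.17 and 7.88 on day 3, 7.11 and 7.56 on day 4, 7.30 and 8.32 on day 5, and 7.51 and 7.46 on day 7. Of the 12 arrays 11 exceeded all 4 uninduced arrays, and all 12 lay below both fresh ones. Against uninduced explants of days 1 and 2 the difference was 1.47, with a 95% interval of 0.68 to 2.25, and was not called (adjusted p = 0.253). Day 7 differed from day 1 by -0.56 (interval -1.67 to 0.55; adjusted p = 0.509).

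Differences between inducers were tested over the early and the late days apart. Over days 1 and 2, Fst was 1.97 ± 0.38 higher with ANX than with NGAL (adjusted p = 0.00655), and ANX minus LIF was 1.28 ± 0.38 (adjusted p = 0.181). Over days 3 to 7, Fst was lower with LIF than with NGAL (-0.98 ± 0.27; adjusted p = 0.00561), and ANX minus NGAL was -0.16 ± 0.27 (adjusted p = 0.68). Over all 6 days ANX exceeded LIF by 0.98 ± 0.22 (adjusted p = 0.0102), with the higher mean on 5 of 6 days. ANX minus NGAL over 6 days was 0.55 ± 0.22 and just missed the threshold (adjusted p = 0.0507); the other probe set gave 0.34 and was called (adjusted p = 0.032). The day 1 to day 7 changes in Fst differed by -3.35 ± 0.76 between ANX and NGAL (adjusted p = 0.055). That kind of test called 0 of 9 genes in each pair, where 0.0527% of all genes were called for ANX against NGAL, 0.00878% for LIF against NGAL and 0% for ANX against LIF. Over days 1 and 2, LIF against NGAL had 2 of 9 genes called where 5.17% of all genes were, ANX against NGAL 2 where 2.12% were, and ANX against LIF 1 where 0.623% were. Over days 3 to 7 the counts were 6, 5 and 1, where 39%, 36% and 2.26% were. Ranked by mean, 17 of 20 neighbouring groups overlapped; ANX day 1 and fresh tissue stood alone at the top.

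**Figure D2:**
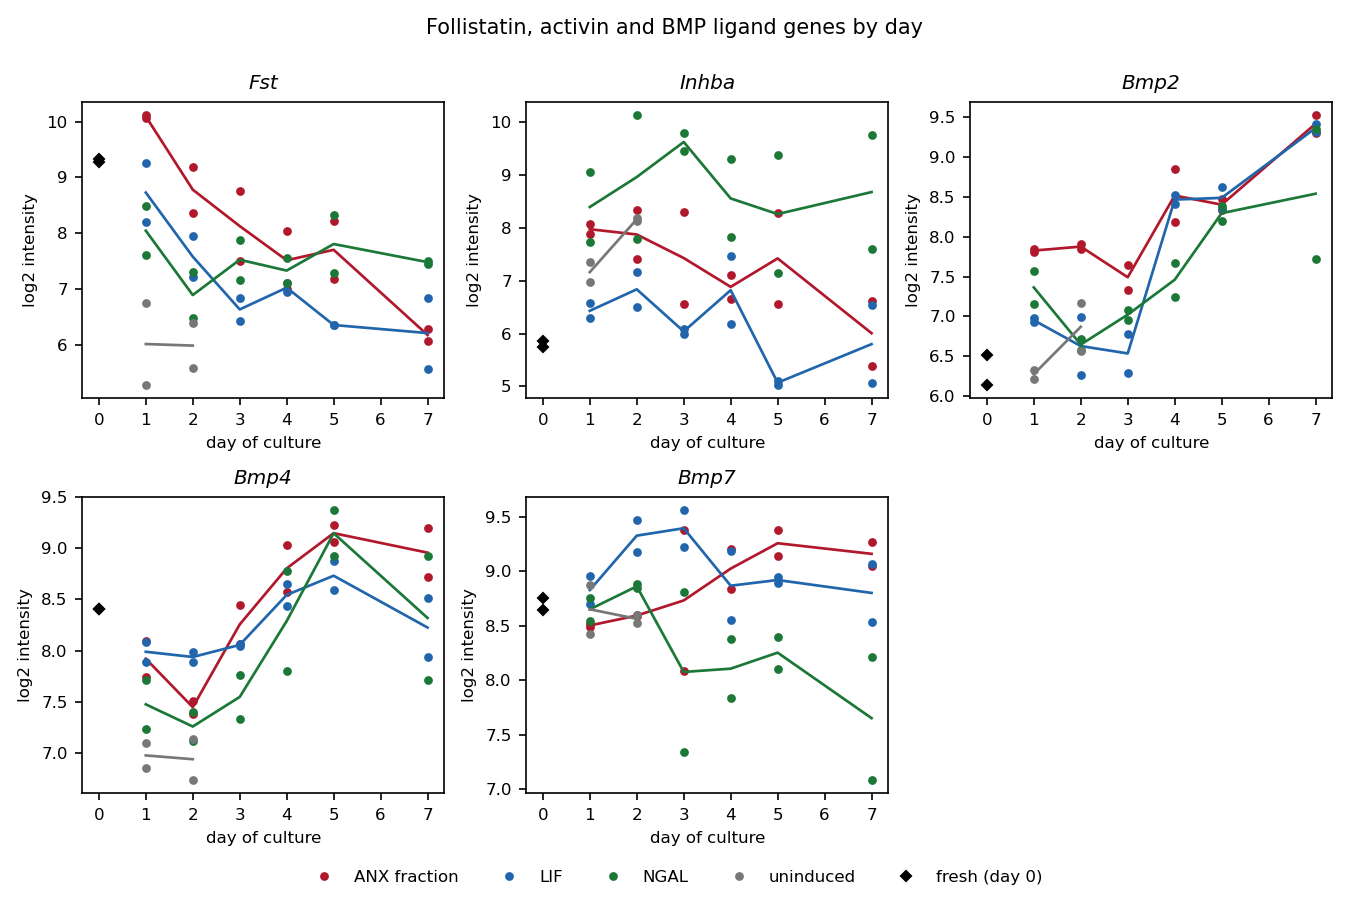
Log2 intensity (y axis) of Fst and the ligand genes by day of culture (x axis) on all 42 arrays; points are single arrays, lines join group means for ANX, LIF, NGAL and uninduced explants, and diamonds are fresh tissue at day 0. Fst starts at 10.07 and 10.12 with ANX and ends at 6.08 and 6.28, and Inhba is highest with NGAL. The mean of Bmp2 is highest on day 7 with every inducer, but the NGAL arrays of that day lie apart (7.72 and 9.35).

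Inhba, whose beta A chain forms activin A, had the largest log2 difference of the 9 genes in each pair of inducers over 6 days. ANX arrays read 7.88 and 8.07, 7.40 and 8.35, 6.55 and 8.30, 6.65 and 7.12, 6.57 and 8.28, and 5.39 and 6.62 on days 1, 2, 3, 4, 5 and 7. LIF arrays read 6.29 and 6.57, 6.50 and 7.17, 6.09 and 5.99, 6.18 and 7.47, 5.04 and 5.11, and 5.06 and 6.54 on the same days. NGAL arrays read 7.74 and 9.05, 7.79 and 10.13, 9.46 and 9.79, 7.82 and 9.29, 7.15 and 9.37, and 7.59 and 9.76. On each of the 6 days both LIF arrays were below both NGAL arrays, and the medians over 12 arrays were 7.26 with ANX, 6.23 with LIF and 9.17 with NGAL. Over 6 days Inhba was 5.97-fold lower with LIF than with NGAL (-2.58 ± 0.33; adjusted p = 3.1e-06) and 2.79-fold lower with ANX than with NGAL (-1.48 ± 0.33; adjusted p = 0.00143). ANX minus LIF was 1.10 (interval 0.41 to 1.79) and was not called (adjusted p = 0.0565). Both calls were kept without any single array.

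Uninduced culture had more Inhba signal than fresh tissue on day 2. Uninduced arrays read 7.35 and 6.98 on day 1 and 8.19 and 8.14 on day 2, against 5.75 and 5.87 in fresh tissue. All 4 lay above fresh tissue, and Inhba was higher on day 2 (2.35 ± 0.82; adjusted p = 0.0404) but not called on day 1 (1.36 ± 0.82; adjusted p = 0.327). The day 2 call was lost when any 1 of the 4 arrays compared was left out (2.30 to 2.41; adjusted p up to 0.154), and also with the dap ratio as a covariate and with the mean of the gene's probe sets. Against uninduced explants of days 1 and 2 the differences were 0.26 with ANX (interval -0.93 to 1.45), -1.03 with LIF (-2.22 to 0.16) and 1.01 with NGAL (-0.18 to 2.21), none called.

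2 features of the Inhba signal bear on its precision. Replicate 2 exceeded replicate 1 in 6 of 6 NGAL groups, 6 of 6 ANX groups and 18 of all 21 groups, by a median of 1.82 with NGAL and 1.09 with ANX. The gene's other probe set was nearly flat, with group means spanning 0.32 against 4.55 for the one used, and it gave -0.11 for LIF against NGAL (adjusted p = 0.227). The correlation of the 2 probe sets over the 21 group means was 0.59.

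Among the BMP ligands, Bmp2 had its highest mean on day 7 with every inducer. Uninduced arrays read 6.22 and 6.33 on day 1 and 7.17 and 6.57 on day 2, against 6.52 and 6.15 in fresh tissue, and neither day was called (-0.06 and 0.54, adjusted p = 0.934 and 0.246). ANX arrays read 7.81 and 7.84 on day 1, 7.85 and 7.90 on day 2, 7.65 and 7.34 on day 3, 8.18 and 8.85 on day 4, 8.47 and 8.33 on day 5, and 9.52 and 9.30 on day 7. All 12 ANX arrays exceeded all uninduced ones, and over days 1 and 2 the difference was 1.28 ± 0.23 (2.42-fold; adjusted p = 0.000533). LIF arrays read 6.93 and 6.98, 6.26 and 7.00, 6.78 and 6.30, 8.41 and 8.52, 8.62 and 8.35, and 9.31 and 9.42 on days 1, 2, 3, 4, 5 and 7. With LIF the arrays to day 3 lay within the uninduced range and those from day 4 above it. NGAL arrays read 7.57 and 7.15, 6.58 and 6.72, 6.96 and 7.09, 7.25 and 7.67, 8.20 and 8.39, and 7.72 and 9.35 on those days.

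Day 7 exceeded day 1 in Bmp2 by 1.59 ± 0.33 with ANX (adjusted p = 0.00234), by 2.41 ± 0.33 with LIF (adjusted p = 8.03e-05) and by 1.17 ± 0.33 with NGAL (adjusted p = 0.0178). The NGAL change was 0.36 without NGAL day 7 replicate 2 (adjusted p = 0.433) and 0.96 without NGAL day 1 replicate 2 (adjusted p = 0.185). As the mean of the 3 inducers, day 7 was 6.82-fold above fresh tissue (2.77 ± 0.27; adjusted p = 3.31e-08). Across 6 days Bmp2 was higher with ANX than with NGAL (0.70 ± 0.13; adjusted p = 0.000336), on 6 of 6 days, and higher with ANX than with LIF (0.52 ± 0.13; adjusted p = 0.0261), on 5 of 6 days. The second of these was lost in 7 of 24 fits that left out 1 array (0.45 to 0.58; adjusted p up to 0.056), and over days 1 and 2 it was 1.06 ± 0.23 (adjusted p = 0.0291). LIF minus NGAL was 0.18 (interval -0.09 to 0.46; adjusted p = 0.284).

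Bmp4 was lower in uninduced culture and higher with ANX or LIF. Uninduced arrays read 6.86 and 7.10 on day 1 and 6.74 and 7.14 on day 2, against 8.41 and 8.40 in fresh tissue. The difference was -1.43 ± 0.31 on day 1 (adjusted p = 0.00655) and -1.46 ± 0.31 on day 2 (adjusted p = 0.00199). The day 1 call was lost without fresh replicate 1 (-1.43; adjusted p = 0.0647), fresh replicate 2 (-1.43; adjusted p = 0.0598) or uninduced day 1 replicate 1 (-1.31; adjusted p = 0.1), while the day 2 call was kept.

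ANX arrays read 8.10 and 7.75 on day 1, 7.51 and 7.39 on day 2, 8.44 and 8.07 on day 3, 9.03 and 8.57 on day 4, 9.23 and 9.06 on day 5, and 9.19 and 8.72 on day 7. LIF arrays ran from 7.89 to 8.87 and NGAL arrays from 7.12 to 9.37, each highest on day 5 (8.59 and 8.87 with LIF, 8.92 and 9.37 with NGAL). Of the 36 induced arrays 35 exceeded all 4 uninduced arrays. Over days 1 and 2 the difference from uninduced explants was 0.72 ± 0.22 with ANX (adjusted p = 0.0223), 1.00 ± 0.22 with LIF (adjusted p = 0.00221) and 0.41 ± 0.22 with NGAL (not called; adjusted p = 0.743). The ANX call was lost in 4 of 8 fits that left out 1 array, those without replicate 1 of uninduced day 1 (0.66), uninduced day 2 (0.62), ANX day 1 (0.64) or ANX day 2 (0.69), with adjusted p up to 0.0952. Day 7 exceeded day 1 with ANX by 1.03 ± 0.31 (adjusted p = 0.0285), a call lost without ANX day 1 replicate 1 (1.21; adjusted p = 0.062), ANX day 1 replicate 2 (0.86; adjusted p = 0.203) or ANX day 7 replicate 1 (0.80; adjusted p = 0.195). Over 6 days Bmp4 was higher with ANX than with NGAL (0.41 ± 0.13; adjusted p = 0.0132), on 6 of 6 days. ANX minus LIF was 0.17 (interval -0.09 to 0.44).

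Bmp7 was called only between inducers. Uninduced arrays read 8.42 and 8.88 on day 1 and 8.60 and 8.52 on day 2, against 8.65 and 8.75 in fresh tissue. No inducer was called against uninduced explants (-0.06 with ANX, 0.47 with LIF and 0.15 with NGAL, each ± 0.27). On days 3, 4, 5 and 7 the ANX arrays read 9.38 and 8.08, 9.21 and 8.84, 9.14 and 9.38, and 9.27 and 9.05, against 7.34 and 8.81, 7.83 and 8.38, 8.40 and 8.10, and 7.09 and 8.21 with NGAL. The groups overlapped on day 3 and were apart on days 4, 5 and 7. Over 6 days Bmp7 was higher with LIF than with NGAL (0.76 ± 0.16; adjusted p = 0.000441), on 6 of 6 days, and higher with ANX than with NGAL (0.61 ± 0.16; adjusted p = 0.00383), on 4 of 6 days. On days 1 and 2 alone ANX minus NGAL had the other sign (-0.21 ± 0.27; adjusted p = 0.769).

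Other cell type markers moved with NGAL on the same days. On days 3 to 7 the summed intensity of the 8 mesenchyme markers was 5632 to 10564 with ANX and 6032 to 9750.0 with LIF, against 1973 to 7336 with NGAL. The summed intensity of the skeletal muscle markers was 2175 to 4094 with ANX and 2503 to 6979 with LIF, against 3344 to 19159.7 with NGAL. The stromal markers summed to 6744 to 16518 with ANX and 7388 to 13246 with LIF, against 13077 to 23253 with NGAL. Endothelial markers summed to 1022 to 1829 with ANX and 851 to 1236 with LIF, against 1166 to 2187.5 with NGAL. The lowest mesenchyme sum, 1973, was NGAL day 7 replicate 1, whose partner had 6195, and that array also had the lowest Bmp7 of the series. The part of these markers in the differences between inducers was not tested.

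Id1, a helix-loop-helix repressor and one of the best known BMP target genes, was lower in uninduced culture and higher with ANX or LIF, as Bmp4 was. Uninduced arrays read 9.57 and 9.99 on day 1 and 9.71 and 9.51 on day 2, against 10.96 and 10.82 in fresh tissue. Id1 was lower by 1.11 on day 1 (-1.11 ± 0.20; adjusted p = 0.00102) and by 1.28 on day 2 (-1.28 ± 0.20; adjusted p = 0.000102). Only the first was lost in any fit that left out an array, without uninduced day 1 replicate 1 (-0.90; adjusted p = 0.051).

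With ANX, Id1 read 11.19 and 10.84 on day 1, 10.79 and 10.58 on day 2, 11.05 and 11.19 on day 3, 11.30 and 11.38 on day 4, 11.55 and 11.29 on day 5, and 11.51 and 11.11 on day 7. With LIF the 12 arrays ran from 10.24 to 11.42, with day 1 at 11.08 and 10.94. With NGAL the arrays read 10.24 and 10.12, 9.67 and 9.02, 10.17 and 10.22, 10.50 and 10.37, 11.15 and 11.26, and 10.72 and 11.03 on days 1, 2, 3, 4, 5 and 7. The day 1 arrays of ANX and LIF overlapped or exceeded fresh tissue, the NGAL arrays of day 2 overlapped uninduced culture, and NGAL overlapped LIF on days 5 and 7 but ANX on no day. Against uninduced explants over days 1 and 2 Id1 was 2.22-fold higher with ANX (1.15 ± 0.14; adjusted p = 7.45e-06) and 2.13-fold higher with LIF (1.09 ± 0.14; adjusted p = 1.36e-05). With NGAL the difference was 0.07, with a 95% interval of -0.22 to 0.35. Over the same days Id1 was higher with ANX than with NGAL by 1.09 ± 0.14 (adjusted p = 0.000135) and with LIF than with NGAL by 1.02 ± 0.14 (adjusted p = 0.000144).

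Over 6 days both kept a higher Id1 than NGAL, ANX by 0.77 ± 0.08 (adjusted p = 5.17e-07) and LIF by 0.54 ± 0.08 (adjusted p = 1.45e-05), each on 6 of 6 days. Within NGAL, day 7 exceeded day 1 by 0.70 ± 0.20 (adjusted p = 0.0185). That call was lost without NGAL day 1 replicate 2 (0.63; adjusted p = 0.143) or NGAL day 7 replicate 2 (0.54; adjusted p = 0.118). Day 7 minus day 1 was 0.29 with ANX (interval -0.11 to 0.70) and 0.06 with LIF (interval -0.34 to 0.47).

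Id3 encodes a related repressor. Uninduced arrays read 10.70 and 11.33 on day 1 and 10.69 and 10.77 on day 2, against 11.57 and 11.67 in fresh tissue. Day 2 was lower by 0.89 (-0.89 ± 0.23; adjusted p = 0.00896), and day 1 was not called (-0.60; adjusted p = 0.124). The call was lost without fresh replicate 2 (-0.84; adjusted p = 0.0736) or uninduced day 2 replicate 1 (-0.85; adjusted p = 0.0701). ANX explants of days 1 and 2 read 11.62 and 11.77, and 11.64 and 11.17, 0.68 ± 0.17 above uninduced ones (adjusted p = 0.00558; 0.52 and adjusted p = 0.0594 without uninduced day 1 replicate 1). Over 6 days Id3 was higher with ANX than with LIF (0.33 ± 0.10; adjusted p = 0.0418) and lower with LIF than with NGAL (-0.24 ± 0.10; adjusted p = 0.0434). These were lost in 16 and 15 of 24 fits that left out 1 array, with ranges of 0.27 to 0.39 and -0.30 to -0.19. The first was also lost with the dap ratio as a covariate.

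Smad6 encodes an inhibitory SMAD that BMP signals induce and that restrains them in turn. Its uninduced arrays read 7.76 and 7.88 on day 1 and 7.50 and 7.77 on day 2, against 8.51 and 8.28 in fresh tissue. All 4 were below fresh tissue, by 0.57 on day 1 (-0.57 ± 0.15; adjusted p = 0.0259) and by 0.76 on day 2 (-0.76 ± 0.15; adjusted p = 0.00119). The day 1 call was lost without any 1 of the 4 arrays compared (-0.68 to -0.46; adjusted p up to 0.242). ANX arrays ran from 7.94 to 8.74, with the highest mean on day 7 (8.74 and 8.39), and over days 1 and 2 stood 0.35 ± 0.11 above uninduced ones (adjusted p = 0.0241). That call was lost in 6 of 8 fits that left out 1 array (0.28 to 0.42; adjusted p up to 0.117), all but those without replicate 2 of the uninduced groups. Over 6 days Smad6 was higher with ANX than with LIF (0.28 ± 0.06; adjusted p = 0.00972) and than with NGAL (0.17 ± 0.06; adjusted p = 0.0353), on 6 of 6 days in each; the second call was lost in 12 of 24 such fits (0.14 to 0.20; adjusted p up to 0.0872). With the mean of the probe sets of Smad6, the calls of ANX against uninduced explants and against LIF were lost. That mean takes in probe sets that stayed below the threshold in every group. In the limma fit of all probe sets, the other set above the threshold was called only on uninduced day 2 (-0.95 ± 0.24, adjusted p = 0.0105). It gave -0.67 on uninduced day 1 (adjusted p = 0.129) and 0.38 for ANX against uninduced explants (adjusted p = 0.136). Against LIF and NGAL over 6 days ANX gave 0.23 in each (adjusted p = 0.201 and 0.0829).

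Id2, the third repressor, was not called in any comparison on the probe set used. Its 42 arrays ran from 10.85 to 12.66, and replicates were up to 1.45 apart (NGAL day 3, 12.39 and 10.94). LIF arrays had the higher mean on 6 of 6 days against NGAL, but the difference of 0.38 (interval 0.01 to 0.75) was not called (adjusted p = 0.0912). The gene's other probe set correlated with this one at 0.40 over the group means and was lower on uninduced day 2 than in fresh tissue (-1.55 ± 0.36; adjusted p = 0.00583), where the set used gave 0.08 ± 0.44. That other probe set was also called over 6 days, higher with ANX than with NGAL (0.66 ± 0.15; adjusted p = 0.00177) and higher with LIF than with NGAL (0.52 ± 0.15; adjusted p = 0.00882).

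**Figure D3:**
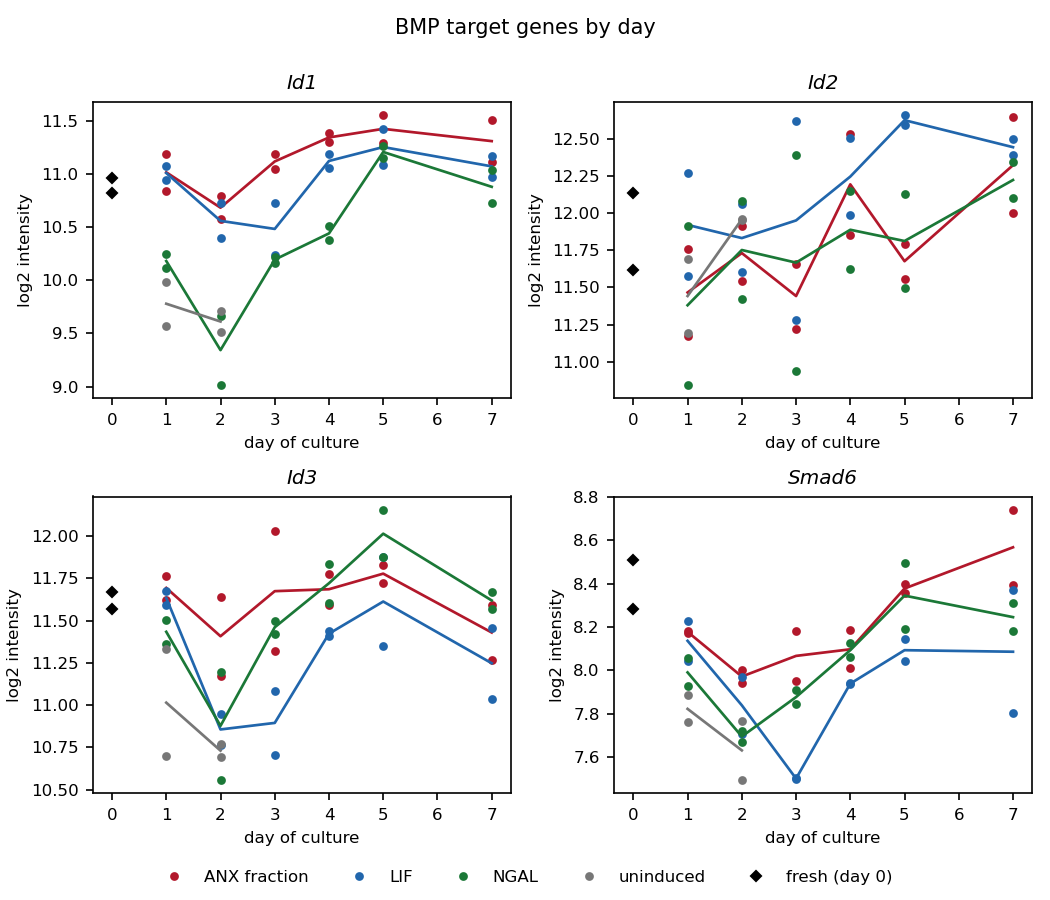
Log2 intensity (y axis) of Id1, Id2, Id3 and Smad6 by day of culture (x axis) on all 42 arrays; points are single arrays, lines join group means, and diamonds are fresh tissue at day 0. The ANX and LIF lines of Id1 start at the fresh signal, 1 of the NGAL points of day 2 (9.67 and 9.02) lies among the uninduced ones and the other below them, those of day 5 reach LIF, and the Id2 points scatter without separating the groups.

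Between day 7 and day 1, 3 of 9 were called with ANX (Fst lower, Bmp2 and Bmp4 higher), where 13.8% of all genes tested were called (6.4% higher, 7.43% lower). With LIF 2 of 9 were called (Fst lower, Bmp2 higher), where 10.9% were (4.39% higher, 6.51% lower), and with NGAL 2 of 9 (Bmp2 and Id1 higher), where 15.5% were (6.92% higher, 8.6% lower). Induced explants of day 7 differed from fresh tissue in 2 of 9 (Fst -2.67 ± 0.44, Bmp2 2.77 ± 0.27), where 34.5% of all genes were called (15.9% higher, 18.6% lower). Bmp4, Id1, Id3 and Smad6 were below fresh tissue in uninduced culture. As means of the 3 inducers they stood within 0.20 of fresh tissue on day 7 (0.09, 0.20, -0.19 and -0.09). The 95% intervals were -0.43 to 0.62, -0.14 to 0.53, -0.58 to 0.21 and -0.35 to 0.16. Single inducers differed: Bmp4 averaged 8.95 with ANX, 8.23 with LIF and 8.32 with NGAL, against 8.41 in fresh tissue. The other Smad6 probe set above the threshold gave -0.51 ± 0.20 in the limma fit of all probe sets (adjusted p = 0.0576).

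Cell type markers differed over the same span. The 9 ureteric bud markers summed to 2035 and 2093 on ANX day 7, 1212 and 2126.5 on LIF day 7 and 807 and 1903 on NGAL day 7, against 715 and 822, 746.5 and 738, and 716 and 816 on day 1 of the same inducers and 581 and 634 in fresh tissue. Of the 9, 7 exceeded the threshold in each day 7 group, all but Wnt11 and Calb1. In fresh tissue Wnt11 was above it, while Cdh1, Emx2, Krt8 and Krt18 were below it. Which cells of the day 7 explants carry these markers was not tested. The 6 arrays of day 7 had erythroid sums of 388 to 477 and endothelial sums of 1022 to 2187.5, against 16204 to 17878 and 3604 to 3821 in fresh tissue. The part of these markers in the day 7 differences was not tested.

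Pairs of inducers over 6 days differed in 6 of 9 genes for ANX against NGAL (5 higher, 1 lower), where 37.5% of all genes tested were called (22.2% higher, 15.3% lower). ANX against LIF had 4 of 9, where 5.01% were called (3.37% higher, 1.63% lower), and LIF against NGAL 4 of 9 (2 higher, 2 lower), where 41.7% were (21.5% higher, 20.3% lower). All 4 calls of ANX against LIF (Fst, Bmp2, Id3 and Smad6) were higher with ANX. Whether the time courses differ in shape was asked with a moderated F-test in limma, which called 0 of 9 genes where 0.0351% of all genes were called; Fst, Bmp2 and Id1 had an unadjusted p under 0.05, as did 660 of all genes. Fst had an adjusted p of 0.461 and Id1 of 0.436 in that test.

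**Figure D4:**
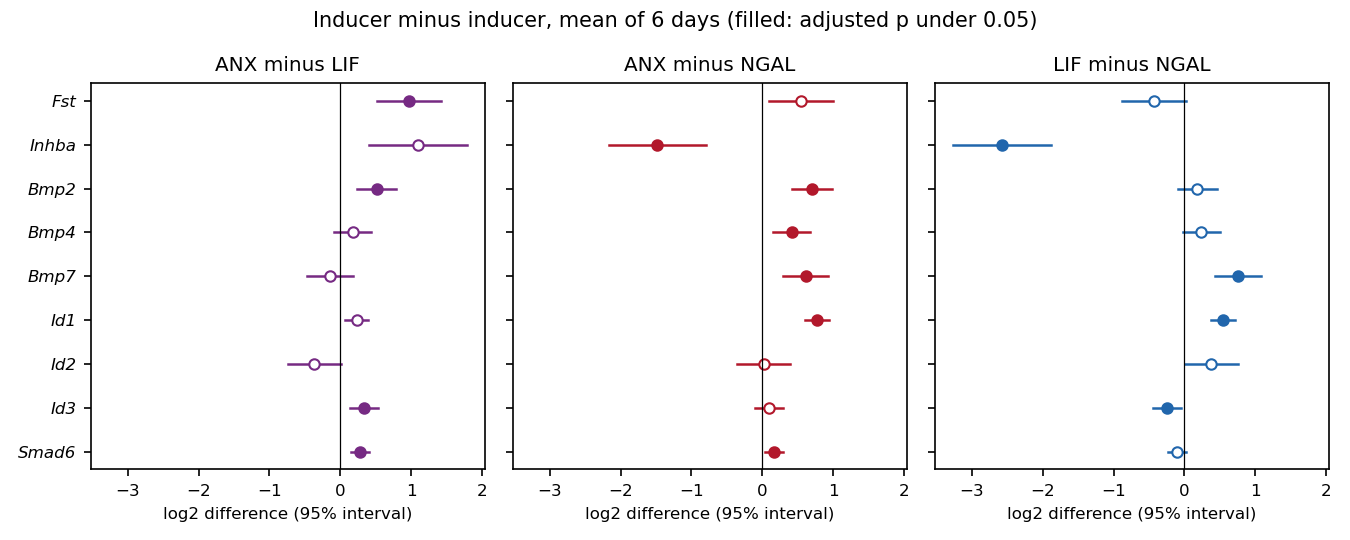
Each panel plots, for the 9 tested genes, the log2 difference between 2 inducers as the mean of 6 days (x axis; 12 arrays an inducer), with its 95% interval as a bar; filled points have an adjusted p under 0.05. Inhba lies furthest left in the 2 panels against NGAL (-1.48 for ANX and -2.58 for LIF), and the filled points of ANX minus LIF all lie right of 0.

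Across the 21 group means, which share arrays and the common culture axis and are given as a description, Bmp4 and Id1 had a Pearson correlation of 0.88, Id3 and Smad6 of 0.78, and Inhba and Bmp7 of -0.65. The genes with the most similar course were Slc20a1 for Fst (0.87), followed by Ehd1, Kti12, Mtap and Tpm3. For Bmp4 they were Pax8 (0.90), Mfge8 and Pax2, and for Bmp7 Espn (0.93), Sort1 and Eya1. Pax2, Pax8 and Eya1 encode regulators of the kidney lineage. Inhba was nearest to Ilk (0.92), Phldb1 and Aldh3a2, and Bmp2 to Syndig1l (0.94), Kiaa0040 and Cbs. Among the target genes Id1 was nearest to Pgam1 (0.94), C1qtnf12 and Vps37b, Id2 to Klf3 (0.84), Fam53a and Larp4b, Id3 to Zfp367 (0.88), Fam120a and Vapa, and Smad6 to Pgk1 (0.89), Mogs and Mark1.

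Of 75 further genes of the pathway, 62 had a probe set and 51 passed the signal threshold. On uninduced day 1, 1 of the 51 was higher and 3 lower than in fresh tissue, and on day 2, 8 higher and 7 lower. These are 7.84% and 29.4% of the list, near the 6.06% and 22.2% of all genes called, with median differences of -0.05 and -0.01 beside 0.00072 and -0.05 over all genes. Over days 1 and 2, ANX gave 5 higher and 4 lower than uninduced, LIF 4 and 5, and NGAL 0 and 0. These are 17.6%, 17.6% and 0% of the list beside 20.3%, 24% and 0% of all genes, with medians of -0.02, -0.12 and -0.01. From day 1 to day 7, 7 were higher and 5 lower with ANX, 4 and 2 with LIF and 9 and 5 with NGAL. These are 23.5%, 11.8% and 27.5% of the list beside 13.8%, 10.9% and 15.5% of all genes, with medians of 0.03, 0.05 and 0.24 beside -0.04, -0.04 and -0.07 over all genes. Over 6 days, ANX against NGAL had 7 higher and 17 lower (median -0.10, beside 0.04 over all genes), LIF against NGAL 8 and 21 (-0.18, beside 0.03) and ANX against LIF 6 and 4 (0.06, beside 0.01). These are 47.1%, 56.9% and 19.6% of the list beside 37.5%, 41.7% and 5.01% of all genes. Receptors and co-receptors had 0 of 13 higher and 8 lower in ANX against NGAL, where 22.2% of all genes were higher and 15.3% lower. They had 1 higher and 7 lower in LIF against NGAL, where 21.5% and 20.3% of all genes were.

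On induced day 7 against fresh tissue, 13 of the 51 genes were higher and 8 lower. These are 41.2% of the list beside 34.5% of all genes. Of 8 secreted antagonists tested, 5 were higher and 0 lower, where 15.9% of all genes tested were higher and 18.6% lower. Among the 5 is Sostdc1, which passed the signal filter only through day 7 groups. Nog, also among the 5, passed that filter only through induced groups. Ligands had 3 higher and 1 lower, receptors and co-receptors 2 and 1, mediators and brakes 1 and 4, and target genes 2 and 2. Nog, which encodes the BMP antagonist noggin, read 6.82 and 6.04 with ANX on day 1 and 6.97 and 6.82 on day 2, and 6.74 and 6.72 with LIF on day 1 and 7.54 and 7.51 on day 2. The uninduced arrays read 4.99 and 4.78, and 5.38 and 5.25, below the signal threshold and below every ANX and LIF array of these days. With means under the threshold set to it, Nog was higher by 0.88 with ANX (1.56 ± 0.28 as measured) and by 1.34 with LIF (2.03 ± 0.28 as measured). On day 7 Nog was 8.95 and 8.32 with ANX, 8.09 and 8.52 with LIF and 6.77 and 8.20 with NGAL. Fresh tissue read 5.84 and 5.72, and the mean of the inducers was 2.36 ± 0.32 higher. The fresh and uninduced means of Nog lay below the threshold, so these differences are given as a description.

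Fstl3, a relative of follistatin that also binds activin, was high with LIF. It read 8.96 and 8.74 on LIF day 1 and 9.40 and 9.39 on LIF day 2, against 7.16 and 6.92, and 8.21 and 8.02 in uninduced explants of those days, 1.54 ± 0.23 higher (adjusted p = 7.62e-05). Over 6 days ANX was lower than LIF in Fstl3 by 0.70 (-0.70 ± 0.14; adjusted p = 0.00314), the opposite sign to Fst. Sostdc1, a secreted BMP and Wnt antagonist, was below the threshold in every group up to day 5 and reached 7.16 and 8.24 with ANX and 6.54 and 8.04 with LIF on day 7, against day 1 values of 5.07 and 4.93 with ANX and 5.05 and 5.13 with LIF. The measured differences of day 7 from day 1 were 2.70 ± 0.32 with ANX and 2.20 ± 0.32 with LIF. They were smaller with the threshold in place of the day 1 means (1.91 with ANX). Sostdc1 passed the signal filter only through the ANX and LIF groups of day 7, so these differences are given as a description. With NGAL the day 7 mean of 5.76 stayed below the threshold, and the difference was not called (0.76 ± 0.32; adjusted p = 0.111).

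Bambi encodes a receptor-like protein without a kinase that BMP signals induce and that dampens them. It was lower in uninduced culture than in fresh tissue (-1.33 ± 0.21 on day 1 and -1.36 ± 0.21 on day 2; adjusted p = 0.000424 and 0.000113) and higher than uninduced culture with ANX (1.17 ± 0.15; adjusted p = 1.8e-05) and LIF (0.94 ± 0.15; adjusted p = 0.000137). Day 7 exceeded day 1 by 1.70 with ANX, 1.82 with LIF and 1.15 with NGAL, all called. The intracellular mediator Smad5 was lower than in uninduced culture with ANX (-0.64 ± 0.09; adjusted p = 5.53e-05) and LIF (-0.66 ± 0.09; adjusted p = 3.58e-05).

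Tgfb2, a transforming growth factor beta ligand, read 8.92 to 9.02 on the 4 uninduced arrays, against 6.48 and 7.06 in fresh tissue, with differences of 2.24 on day 1 and 2.20 on day 2 (adjusted p = 0.00079 and 0.000352). It was lower with LIF than with NGAL over 6 days (-0.93 ± 0.16; adjusted p = 5.64e-05). Acvrl1, a receptor that vessel cells use for BMP9, was lower with LIF than with NGAL (-1.73 ± 0.19; adjusted p = 4.62e-07; -0.96 with means under the threshold set to it), and Acvr2b, an activin receptor, was higher (1.00 ± 0.18; adjusted p = 9.52e-05). Rgmb, a BMP co-receptor, was lower than uninduced with ANX (-0.92 ± 0.16) and LIF (-0.98 ± 0.16) and lower than NGAL with both over 6 days (-0.76 ± 0.09 and -0.63 ± 0.09). Bmp5, a ligand related to BMP7, read 7.44 and 7.52 on ANX day 1, against 5.13 and 5.43 on uninduced day 1, and over days 1 and 2 was higher with ANX by 1.82 ± 0.28 (1.00 with means under the threshold set to it; adjusted p = 9.11e-05).

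Among the other target genes, Hey1, a repressor of the hairy family, was higher on day 7 than on day 1 with every inducer (1.80 with ANX, 1.87 with LIF and 2.30 with NGAL, each ± 0.43). Msx1 and Gata2 were lower in uninduced culture than in fresh tissue on days 1 and 2, where their means lay below the threshold. With those means set to the threshold the differences were -0.36 for Msx1 and -0.56 for Gata2 on both days. Pmepa1, a target that restrains transforming growth factor beta signals, was lower with LIF than with NGAL over 6 days (-0.93 ± 0.13; adjusted p = 5.91e-06) and higher with ANX than with LIF (0.54 ± 0.13; adjusted p = 0.0144).

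**Figure D5:**
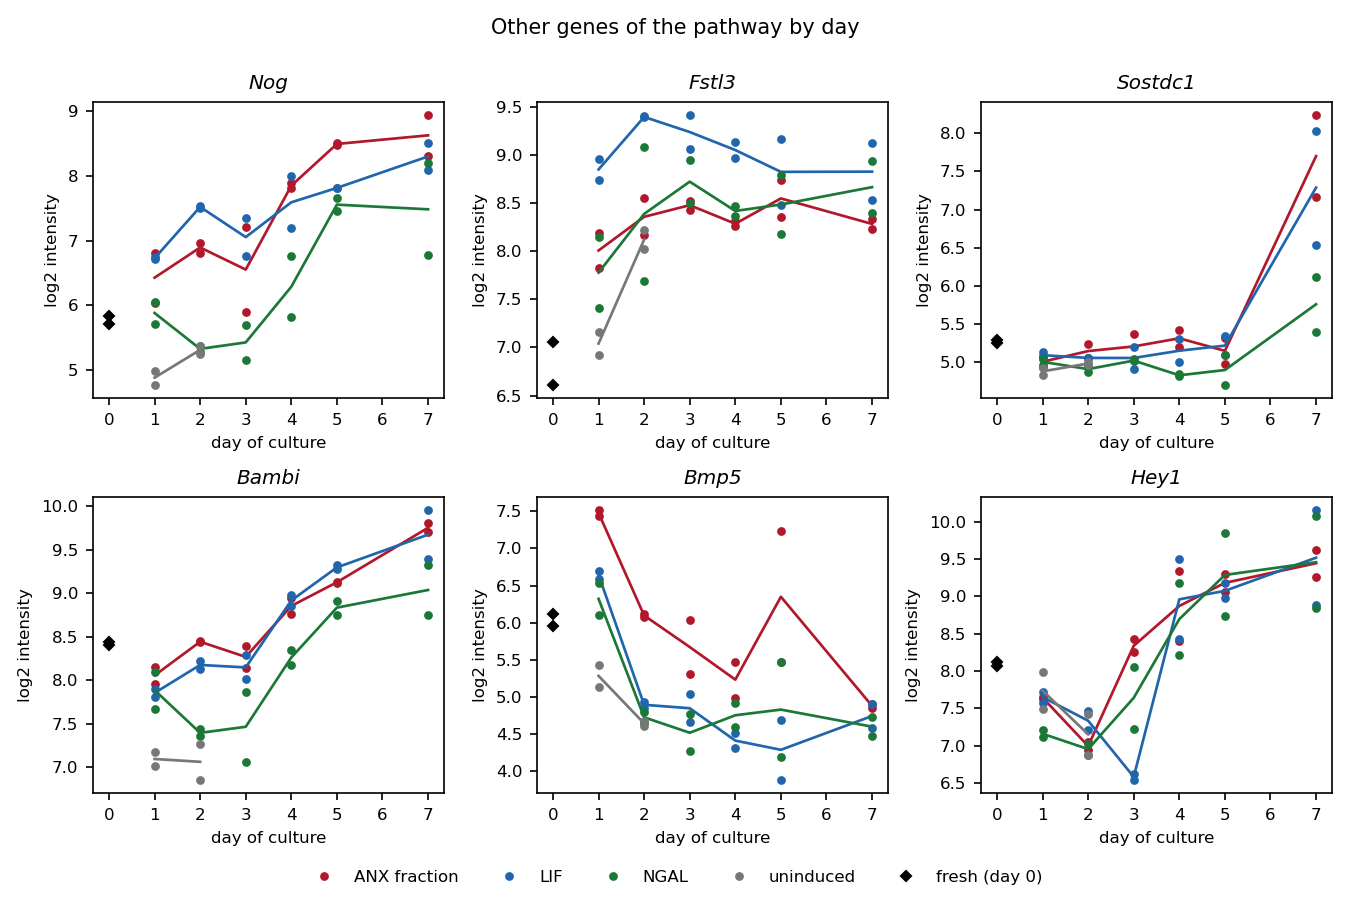
Log2 intensity (y axis) of 6 other pathway genes by day of culture (x axis) on all 42 arrays; points are single arrays, lines join group means, and diamonds are fresh tissue at day 0. Nog and Bambi are higher on day 7 than on day 1 with every inducer, Fstl3 has its highest mean with LIF on day 2 (9.40 and 9.39), Bmp5 is highest with ANX on day 1, and Sostdc1 leaves its low signal on day 7 with ANX and LIF, while the NGAL mean stays below the threshold.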

How the data were processed

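The deposited table holds intensity values that the authors obtained by robust multichip analysis (RMA), per the series' design text and the submitters' processing notes, with the version and settings not given in the sources used here. They span 7.6 to 17972 and the medians of single arrays lie at 83.3 to 88.4, a linear scale, so log2 was taken of the deposited intensity before any test. Arrays have no read depth, and 2 arrays a group limit the precision. The platform's annotation gave 1 gene to 20832 of 31099 probe sets (436 several, 9831 none), and 20764 matched RefSeq by gene number. The filter kept a gene with any group mean above intensity 55.2, which 40% of all values do not reach.

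Comparisons used R 4.3.3 and limma 3.58.1 on the log2 values: 1 mean per group over 42 arrays, 21 residual degrees of freedom, empirical Bayes variances with a trend, and Benjamini-Hochberg adjustment over 11388 genes. The fit was tested on simulated data. The 10 genes, the pathway and marker lists and the tests were chosen with earlier results of these data known. Named pathway genes are called ones with replicates apart, or the same sign on each day, up to 3 per role and comparison with the smallest adjusted p; the genes of similar course are the 3 (5 for Fst) with the highest correlation. Values of single days and the genes shown by array were picked from these after their values were seen. Alternatives were other filters, normalization, probe sets, variance settings, covariates, sets of arrays and days, and each array left out.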

Additional observations from a re-analysis of the deposited data

Results flagged for a closer look

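The effect of an inducer against uninduced explants over days 1 and 2 differed between inducers, by limma's test of the difference with an adjusted p under 0.05, in 5 cases. Of all genes tested, 5.17% were called for LIF against NGAL on these days, 2.12% for ANX against NGAL and 0.623% for ANX against LIF. Since both effects share the uninduced arrays, each difference of effects equals the direct difference between the inducers. For LIF minus NGAL it was -2.04 ± 0.58 in Inhba (SE; adjusted p = 0.0389) and 1.02 ± 0.14 in Id1 (adjusted p = 0.000144). For ANX minus NGAL it was 1.97 ± 0.38 in Fst (adjusted p = 0.00655) and 1.09 ± 0.14 in Id1 (adjusted p = 0.000135), and for ANX minus LIF it was 1.06 ± 0.23 in Bmp2 (adjusted p = 0.0291).

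In 3 cases both day 7 arrays lay above the day 1 mean with 1 inducer and below it with another. How many of all genes tested do so was not counted. Bmp7 was higher on day 7 in both ANX arrays and lower in both NGAL arrays, and the 2 changes differed by 1.66 ± 0.54 (adjusted p = 0.165). Id3 was lower on day 7 in both LIF and both ANX arrays and higher in both NGAL arrays; the changes differed by -0.57 ± 0.33 for LIF minus NGAL (adjusted p = 0.592) and by -0.45 ± 0.33 for ANX minus NGAL (adjusted p = 0.593). None of these 3 differences was called. The tests of changes between day 1 and day 7 were added after the values were seen; they called 0.00878% of genes for LIF against NGAL, 0.0527% for ANX against NGAL and 0% for ANX against LIF.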

How the results depend on the processing

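Of 42 calls of the 9 tested genes, 26 were kept in every fit that left out 1 array and 20 under every other setting. With only a 2-fold or larger change counted, the calls were 3 for ANX against uninduced, 1 for NGAL day 7 against day 1, 1 for LIF against NGAL, 1 for ANX against NGAL and 0 for ANX against LIF. Fits of only the arrays compared gave 5 for LIF against uninduced, 1 for LIF day 7 against day 1 and 0 for NGAL day 7 against day 1, and array weights gave 0 for the last. ANX against uninduced had 3 on day 1 alone and 2 on day 2 alone. On days 1 and 2 alone LIF against NGAL had 2, ANX against NGAL 2 and ANX against LIF 1, and ANX against LIF had 1 on days 3 to 7. Id3 in LIF against NGAL turned to 0.090 and Bmp7 in ANX against NGAL to -0.21 on days 1 and 2 alone; the cause was not tested.

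A fit that left out an array had 1 array in that group, so its counts of calls are not given. Among the followed genes, such fits lost calls in every comparison with calls except LIF against uninduced and day 7 against fresh. Some fits also added calls, as for LIF against NGAL. Every such fit called fewer of all genes than the full fit for uninduced days 1 and 2 against fresh. The same held for ANX and LIF day 7 against day 1. In these comparisons the lost calls were therefore not confined to the followed genes. In the other comparisons with calls, more or fewer of all genes were called, depending on the array left out. Over all genes, array weights gave 1891 against 690 calls for uninduced day 1, 6165 against 2527 for day 2, 3645 against 2309 for ANX and 23 against 0 for NGAL against uninduced, 328 against 1241 for LIF and 835 against 1767 for NGAL day 7 against day 1, and 8 against 4 for the F-test. Only the arrays compared gave 5859 against 2527 for uninduced day 2, 17 against 0 for NGAL against uninduced, 586, 30 and 144 against 1575, 1241 and 1767 for ANX, LIF and NGAL day 7 against day 1, 1972 against 3926 for day 7 against fresh and 314 against 570 for ANX against LIF. The dap ratio as a covariate gave 1673 against 2527 for uninduced day 2, and testing all probe sets 6411 against 4273 for ANX against NGAL. A 2-fold minimum left 27 to 991 of all genes in the comparisons with calls, and single days or sets of days gave 949 and 927 against 2733 for LIF and 740 and 599 against 2309 for ANX against uninduced, 2 against 0 for NGAL on day 1, 589 against 4751 for LIF against NGAL, 241 against 4273 for ANX against NGAL, and 71 and 257 against 570 for ANX against LIF. With no filter or with the mean of probe sets NGAL against uninduced had 1 gene called, and the F-test had 0 with the stricter filter or with only the arrays compared, and 2 with all or with averaged probe sets.

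Replicate numbers were not taken as pairs: with 2 numbers a group, the deviations of same-numbered arrays had a median correlation of 0.07 over 210 pairs of groups. With the replicate block the calls were 4 and 6 for uninduced days 1 and 2, 6, 3 and 0 for ANX, LIF and NGAL against uninduced, 4, 2 and 2 for their day 7 against day 1, 2 for day 7 against fresh, 7 for ANX against NGAL, 5 for ANX against LIF, 4 for LIF against NGAL and 0 for the F-test, which called 7 of all genes against 4. The block added Inhba in ANX day 7 against day 1 (-1.97; adjusted p = 0.0177) and in ANX against LIF (1.10; adjusted p = 0.00524), and Fst in ANX against NGAL (0.55; adjusted p = 0.0429). Signal over background limits Inhbb, which stayed below the threshold, and Inhba with LIF, whose day 5 mean lay below it.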
